A study of Homo sapiens with 4 samples.

Results

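Long intergenic noncoding RNAs were examined in HUT78, a human cell line established from a cutaneous T-cell lymphoma, after exposure to the compound CSH71 and in untreated cells. Members were chosen by symbol and by measured level: every gene whose symbol begins with LINC in the platform's probe-to-gene table and whose mean intensity over the 4 arrays was 100 or more, plus CYTOR, LINC01720 and LINC01776, which were named singly. A gene with several probe sets was represented by its brightest one. This gave 107 members among 14884 measured genes, of which 106 were among the 459 measured LINC genes and the last was CYTOR. Members were selected on their intensity, so their levels are given as a description, and the 3 singly named genes are given as values with no test.

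The series describes CSH71 as a chemical directed at the lipid-binding domain of the kinase p38γ. Total RNA of 2 HUT78 samples exposed to 250 nM CSH71 for 30 h, and of 2 untreated HUT78 samples, was hybridised to Affymetrix whole-transcript arrays. All samples come from this 1 line, grown in serum-containing medium, and nothing in the labels says that the replicates of a group were separate cultures, and the p-values therefore rest on sample-to-sample spread that may be technical. In bulk RNA, fewer cells that hold a transcript and less of it per cell cannot be told apart.

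Long intergenic noncoding RNAs are transcripts from between protein-coding genes that are usually spliced and polyadenylated like messenger RNAs but are not known to encode a long protein. Some act in the nucleus by recruiting chromatin regulators or through the act of their own transcription beside a neighbouring gene, and others act in the cytoplasm, for example by binding microRNAs or proteins. A LINC symbol is a serial name, so the members share a naming rule and a level rather than a known function. In the RefSeq gene table of assembly GRCh38.p14 all 107 members were matched by gene identifier and all 107 are annotated as lncRNA, spread over 23 chromosomes.

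Among members with no overlap between the groups, the 8 highest and the 8 lowest with CSH71 were taken. Of these 16, 12 had a promoter in the table used. The promoters of the 3 highest and the 3 lowest of these 12 are shown, in order of the difference. CYTOR, LINC01704 and LINC-PINT were higher on both CSH71 arrays than on both untreated arrays, and LINC00938, LINC03062 and LINC02245 were lower. Each window, from RefSeq on GRCh38.p14, runs from 250 bases before to 50 bases after the annotated start and is written 5′ to 3′ along the gene's strand. Capitals mark matches to TGANTCA, where N is any base. AP-1 factors such as JUN and FOSL2 typically bind the forms with C or G in the middle.
CYTOR, chr2:87455177-87455476, plus strand: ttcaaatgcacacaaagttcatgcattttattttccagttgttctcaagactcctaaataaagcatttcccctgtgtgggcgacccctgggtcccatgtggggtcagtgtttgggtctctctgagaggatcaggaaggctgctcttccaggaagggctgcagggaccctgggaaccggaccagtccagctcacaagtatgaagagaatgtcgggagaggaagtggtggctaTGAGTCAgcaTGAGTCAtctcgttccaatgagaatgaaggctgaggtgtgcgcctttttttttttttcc
LINC01704, chr1:158140591-158140890, minus strand: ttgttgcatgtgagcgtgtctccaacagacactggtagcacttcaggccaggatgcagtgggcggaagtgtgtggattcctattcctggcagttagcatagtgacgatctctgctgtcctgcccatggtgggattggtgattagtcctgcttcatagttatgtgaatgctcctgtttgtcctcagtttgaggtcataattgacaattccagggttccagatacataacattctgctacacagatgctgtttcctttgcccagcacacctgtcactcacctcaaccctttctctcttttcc
LINC-PINT, chr7:130913261-130913560, minus strand: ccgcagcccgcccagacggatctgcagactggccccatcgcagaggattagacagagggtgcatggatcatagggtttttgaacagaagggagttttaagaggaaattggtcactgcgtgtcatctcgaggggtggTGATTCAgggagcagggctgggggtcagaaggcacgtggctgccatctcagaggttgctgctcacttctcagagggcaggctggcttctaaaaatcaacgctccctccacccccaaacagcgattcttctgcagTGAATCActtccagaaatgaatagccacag
LINC00938, chr12:45727872-45728171, minus strand: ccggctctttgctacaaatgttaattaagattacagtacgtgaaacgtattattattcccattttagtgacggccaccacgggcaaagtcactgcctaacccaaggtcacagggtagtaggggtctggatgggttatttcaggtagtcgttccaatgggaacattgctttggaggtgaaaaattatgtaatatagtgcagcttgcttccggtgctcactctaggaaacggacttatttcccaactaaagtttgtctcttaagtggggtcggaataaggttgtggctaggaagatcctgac
LINC03062, chr9:89639533-89639832, plus strand: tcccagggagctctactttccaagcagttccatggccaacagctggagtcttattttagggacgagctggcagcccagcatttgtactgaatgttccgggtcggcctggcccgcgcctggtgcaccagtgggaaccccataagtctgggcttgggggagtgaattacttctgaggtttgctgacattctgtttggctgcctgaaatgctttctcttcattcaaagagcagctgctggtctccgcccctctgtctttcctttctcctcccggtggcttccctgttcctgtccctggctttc
LINC02245, chr2:64932398-64932697, minus strand: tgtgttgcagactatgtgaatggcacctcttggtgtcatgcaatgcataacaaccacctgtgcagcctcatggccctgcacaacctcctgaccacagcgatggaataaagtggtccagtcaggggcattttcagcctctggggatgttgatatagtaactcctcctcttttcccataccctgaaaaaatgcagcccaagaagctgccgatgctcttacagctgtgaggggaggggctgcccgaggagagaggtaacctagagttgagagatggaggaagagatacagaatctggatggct

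CYTOR holds 2 matches and LINC-PINT holds 2 in the window shown, the first of 4 listed for it, and 0 in its other 3. Both CYTOR matches read TGAGTCA, whereas those of LINC-PINT read TGATTCA and TGAATCA, with T or A in the middle. The other 4 promoters shown hold 0. Over all 12, 5 held a match. Both strands were searched for TGANTCA and for the cyclic AMP response element TGACGTCA, and neither pattern can contain the other. With the first listed window of each gene, TGANTCA was found in 15 of the 82 members that had a promoter in the table (18.3%), against 2120 of all 27305 promoters of that length (7.76%). TGACGTCA was found in 2 members, LINC00265 and LINC00630 (2.44%), against 540 of all promoters (1.98%). Member promoters had a median GC content of 52.5%, against 58.3% for all promoters. Among the 8 members highest with CSH71 whose groups do not overlap, 3 of the 5 with a promoter held TGANTCA. Among the 8 lowest such members, 2 of 7 did. These matches describe the windows alone, and the TGANTCA counts take in every middle base. LINC-PINT is counted only through its first listed window. The comparison was with all promoters and not with those of noncoding genes alone, and the difference in shares was not tested.

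CYTOR, also known as LINC00152 and named for its reported role in regulating the cytoskeleton, was higher on both CSH71 arrays. Its intensity was 1231 and 1069 on the CSH71 arrays, against 676 and 708 on the untreated arrays. Both treated values lay well above both untreated values, and the difference between replicates was small beside the difference between groups. The log2 fold change, computed as CSH71 minus untreated on log2(intensity + 16), was 0.72. The added constant shrinks the fold change of dim genes.

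LINC01720 and LINC01776 had the highest log2 fold changes of all members, at 1.62 and 1.07, but both rested on 1 array. LINC01720 had an intensity of 48.2 and 478 on CSH71 replicates 1 and 2, against 44.6 and 39.4 on the untreated arrays. CSH71 replicate 1 was thus close to the untreated arrays while replicate 2 stood far above all others. The 2 CSH71 arrays differed by 2.94 on the log2 scale, the largest difference between them among the 14884 genes. LINC01776 had 105 and 277 on the CSH71 arrays, against 83.5 and 65.4 on the untreated arrays. Its difference between the CSH71 arrays was 1.27, the 46th in size of all genes. Without CSH71 replicate 2, the mean over the other 3 arrays was 44.1 for LINC01720 and 84.7 for LINC01776, both under the intensity of 100, and the log2 fold changes were 0.15 and 0.43.

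In all, 4 genes had CSH71 arrays 2 or more apart on the log2 scale, and 0 genes had untreated arrays that far apart. In all 4 the higher array was CSH71 replicate 2. They were LINC01720, LRP1B at 4.35 and 95.6 on the CSH71 arrays against 12.4 and 11.3 on the untreated arrays, and USP17L12 and USP17L9P. The last 2 hold identical values, 71.0 and 612 on the CSH71 arrays against 58.9 and 85.5 on the untreated arrays. These 3 genes outside the members were named after their values were seen, and the source of the CSH71 replicate 2 signal was not tested.

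**Figure D1:**
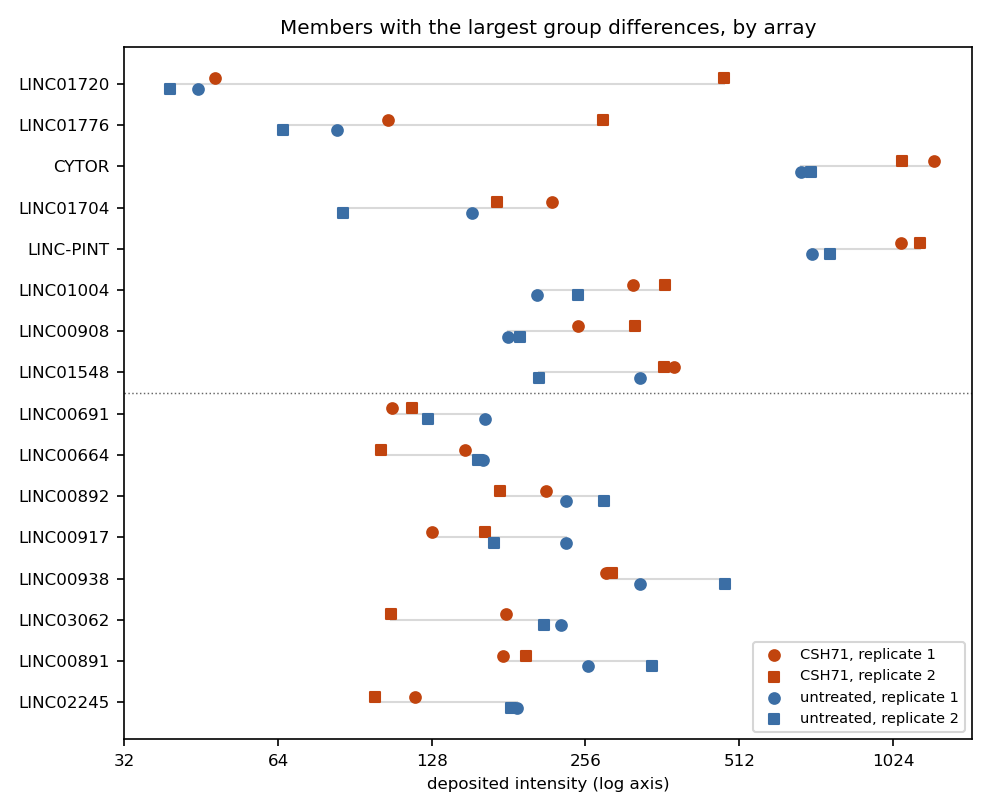
Deposited intensity (log axis) of the 8 members highest and the 8 members lowest with CSH71 among those whose groups do not overlap. Each point is 1 array. LINC01720 sits at 48.2 on CSH71 replicate 1 and at 478 on replicate 2, whereas both CSH71 arrays of CYTOR and LINC-PINT lie together above both untreated arrays.

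LINC-PINT, a p53-induced transcript that in mouse was found to interact with the Polycomb repressive complex, was also higher on both CSH71 arrays. It had 1060.4 and 1155 on the CSH71 arrays, against 712 and 771 on the untreated arrays. The difference was 0.57 ± 0.17 on the log2 scale (SE, n = 2 per group; 95% interval 0.17 to 0.97). It was not called by limma (adjusted p = 0.928).

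Of the other members at the upper end, LINC01004 had 318 and 366 on the CSH71 arrays, against 206 and 247 on the untreated arrays (log2 fold change 0.56 ± 0.19). LINC00908, which has been reported to encode a short peptide that binds STAT3, had 248 and 320 with CSH71, against 181 and 190 without it (0.56 ± 0.19). For both genes the lower treated array exceeded the higher untreated one by a margin of the same order as the gap between the treated arrays. LINC01704 had 219.7 and 172 with CSH71, against 153.5 and 85.8 without it (0.68 ± 0.27). LINC01548 had 381 and 365 with CSH71, against 327 and 208 without it (0.49 ± 0.23). In these 2 genes the untreated arrays were far apart and the gap between the groups was narrow. Without untreated replicate 1 or 2, LINC01704 was at 1.05 or 0.31 and LINC01548 at 0.80 or 0.18. The limma adjusted p was 0.928 for LINC01004 and LINC00908, 0.958 for LINC01704 and 0.990 for LINC01548.

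The member with the lowest log2 fold change was LINC02245, at 119 and 99.0 on the CSH71 arrays, against 188 and 183 on the untreated arrays. The untreated arrays nearly coincided and both treated arrays lay clearly below them. The difference was -0.70 ± 0.18 on the log2 scale (95% interval -1.11 to -0.28), and it was not called (limma adjusted p = 0.928). LINC00891 had 176 and 196 with CSH71, against 259.5 and 345 without it (log2 fold change -0.64 ± 0.20, adjusted p = 0.928). LINC03062 had 179 and 107 with CSH71, against 229.6 and 212 without it (-0.61 ± 0.25, adjusted p = 0.958). In LINC03062 the treated arrays were further apart than the untreated ones and CSH71 replicate 2 was the lower. The difference was -0.28 without that array and -0.95 without CSH71 replicate 1.

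The next 5 on this side had smaller differences, with limma adjusted p from 0.990 to 0.999. LINC00938 had 281 and 289 with CSH71, against 327 and 481 without it. LINC00917 had 128 and 163 with CSH71, against 235 and 169 without it, so that the nearest arrays of the groups almost met. LINC00892, whose neighbour in the genome is CD40LG, the gene of the T-cell costimulatory ligand CD40L, had 214.5 and 174 with CSH71, against 234 and 278 without it. LINC00664 had 149 and 102 with CSH71, against 162 and 158 without it. LINC00691 had 107 and 117 with CSH71, against 163 and 126 without it. In each of these 5 the groups were apart but the gap between the nearest arrays was smaller than the difference between the replicates of at least 1 group. Each moved by over 1.5 times when 1 array was left out. The value nearest to 0 was -0.19 for LINC00938 without untreated replicate 2, -0.20 for LINC00917 and -0.15 for LINC00691 without untreated replicate 1, and -0.23 for LINC00892 and -0.09 for LINC00664 without CSH71 replicate 2.

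Across the members, the group difference was small and evenly split in direction. The log2 fold change was positive for 58 and negative for 49 of the 107, with a median of 0.01 and quartiles at -0.13 and 0.14. Over all 14884 genes it was positive for 7134 and negative for 7747, the median was -0.01 and the quartiles were -0.14 and 0.13. Over the 8821 genes with the same mean intensity of 100 or more, it was positive for 3812 and negative for 5009. Their median was -0.03 and their quartiles were -0.14 and 0.08. The median size of the difference, regardless of sign, was 0.14 among members, 0.11 among genes of mean 100 or more and 0.14 among all genes. The members' replicates also lay further apart. Their median replicate difference was 0.24 for CSH71 and 0.29 for untreated, against 0.15 and 0.19 among genes of mean 100 or more.

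Of the 104 members taken by symbol and intensity alone, 0 were called by limma at an adjusted p under 0.05, where 0.0470% of all genes were called, and the smallest adjusted p was 0.928. At an unadjusted p under 0.05 there were 8 of the 104. Of these, 5 were higher (4.81%), against 3.20% of all genes and 2.0% of genes of mean 100 or more. The other 3 were lower (2.88%), against 1.90% of all genes and 1.53% of genes of mean 100 or more. The 5 were LINC-PINT, LINC01004, LINC00908, LINC01704 and LINC00641, and the 3 were LINC02245, LINC00891 and LINC03062. The members' shares exceeded those of genes of mean 100 or more, but they rest on 5 and 3 genes and the difference was not tested.

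Both CSH71 arrays lay above both untreated arrays in 18 of 107 members (16.8%), against 15.0% of all genes, and below both in another 18 (16.8%), against 16.6% of all genes. Without the 3 singly named genes, 15 of 104 (14.4%) lay above and 18 (17.3%) below. A log2 fold change of 0.5 or more was seen in 7 members (6.54%), against 3.03% of all genes and 1.60% of genes of mean 100 or more, and in 4 of 104 (3.85%) without the 3 singly named genes. A log2 fold change of -0.5 or less was seen in 3 members (2.80%), against 1.57% of all genes and 0.941% of genes of mean 100 or more. The standard error of the 104 tested members ran from 0.16 to 0.30. For 97 of them the 95% interval stayed within a 2-fold change in either direction, and for the other 7 it reached 2-fold or beyond.

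**Figure D2:**
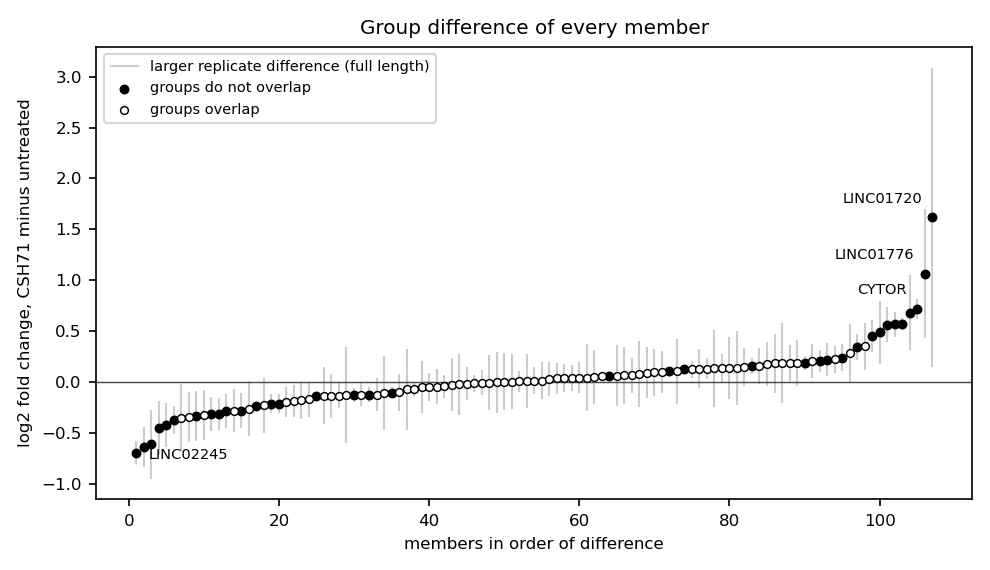
Log2 fold change, CSH71 minus untreated, of each of the 107 members in rising order. Filled points are members whose groups do not overlap, open points those that overlap, and each bar has the length of the larger replicate difference of that gene. For LINC01720 that bar is 2.94 long, and the median over the members is 0.01.

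**Figure D3:**
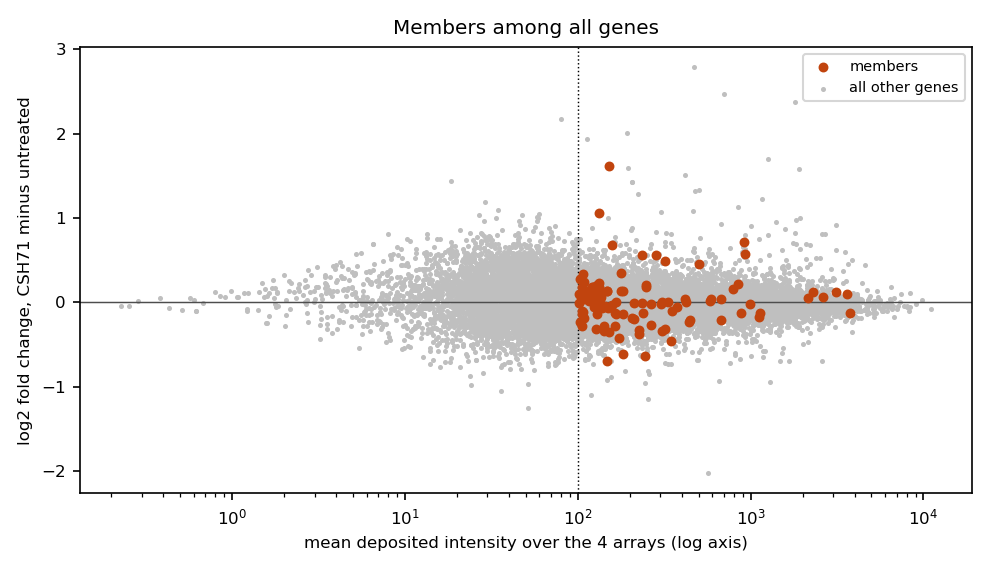
Log2 fold change against mean intensity (log axis) for members and for all other genes, with the dotted line at the intensity of 100 that the rule set. The median size of the difference is 0.14 among members and 0.11 among genes of mean 100 or more, and LINC01720, LINC01776 and CYTOR, at 1.62, 1.07 and 0.72, are the 3 uppermost members.

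The level of the members spanned mean intensities of 101.7 to 3758, with a median of 166. Of the 107, 61 were under 200, 46 were at 200 or more and 8 were at 1000 or more. Intensities of different probe sets depend on their probes, so this order ranks signal and not RNA amount. The 6 brightest members varied little between the groups. LINC00987 had 3416 and 3776 on the CSH71 arrays, against 4039 and 3800.5 on the untreated arrays (log2 fold change -0.12 ± 0.17), so that all 4 arrays lay close together. LINC01347 was at 0.10 ± 0.17, LINC01000 at 0.12 ± 0.17, LINC00999 at 0.06 ± 0.17, LINC01963 at 0.12 ± 0.17 and LINC01061 at 0.05 ± 0.17. Their limma adjusted p was 0.999 each, and with 1 array left out the 6 values stayed between -0.20 and 0.21. The sign of LINC00999 depended on the probe sets. Its used probe set had a mean intensity of 2631. The dimmer ones, at 336, 287 and 274, were lower with CSH71 without overlap, at -0.27, -0.12 and -0.13. The value was -0.0015 when its 4 probe sets were averaged. Signs also differed among the probe sets of LINC01347 (-0.20 to 0.10) and LINC01061 (-0.16 to 0.13). They were the same for LINC00987 and LINC01000.

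At the edge of the rule, the members just above the intensity of 100 were LINC01093 at a mean of 101.7, LINC00851 at 101.7 and LINC00351 at 102.4. The LINC genes just below it were LINC00922 at 98.1, LINC02774 at 97.9 and LINC00200 at 97.8. Their log2 fold changes ran from -0.0043 for LINC01093 to 0.39 for LINC00200.

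Dim and bright members differed in how their arrays varied. Among the 61 members under an intensity of 200, CSH71 replicate 2 was above CSH71 replicate 1 in 41 (67.2%), and untreated replicate 1 was above untreated replicate 2 in 51 (83.6%). Among the 46 brighter members these counts were 18 (39.1%) and 19 (41.3%), and among all genes of mean 100 or more the shares were 36.1% and 30.4%. The array medians over all probe sets, 81.1 for CSH71 replicate 2 and 73.6 for CSH71 replicate 1, and 77.5 for untreated replicate 1 and 71.5 for untreated replicate 2, ran in the same order. The part of these array levels in the members' values was not tested. Groups did not overlap in 14 of the 61 dimmer members (23.0%) and in 22 of the 46 brighter ones (47.8%). The 14 include the singly named LINC01720 and LINC01776, and the 22 include CYTOR. Over all genes of mean 100 or more the share was 32.4%, and over those of mean 200 or more it was 34.2%. The share over all genes between 100 and 200 was not computed, and the differences between these shares were not tested. The 22 brighter members split into 12 higher (26.1%) and 10 lower (21.7%) with CSH71. Over all genes of mean 200 or more these shares were 13.2% and 20.9%.

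Several members were measured by more than 1 probe set, and the other probe sets were not used by the rule except through being dimmer. For CYTOR, 3 probe sets gave log2 fold changes of 0.72, 0.38 and 0.06. The second, 17122660, had 773 and 677 with CSH71, against 540.2 and 568 without it, and the third, 17122506, had 814 and 672 with CSH71, against 651 and 767 without it. The groups were thus apart on 2 of the 3 probe sets and overlapped on the third. The mean of the 3 gave 0.41, so the size of the CYTOR difference depended on the probe set by more than the spread between replicates.

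CYTOR has a closely similar paralogue on the same chromosome, MIR4435-2HG, known in mouse as Morrbid, and probes can be shared between the 2 genes. MIR4435-2HG lies outside the members and was named after its values were seen. Its brightest probe set, 17122504, had 1393 and 1253 on the CSH71 arrays, against 1289 and 1344 on the untreated arrays, a log2 fold change of 0.00 with overlapping groups. Its probe set 17122658 had 451 and 444 with CSH71, against 219.6 and 217 without it, a log2 fold change of 0.98. Its probe set 17122502 had 136 and 113 with CSH71, against 93.2 and 109 without it (0.26). The signal of either gene is therefore uncertain as to its source, and which of the 2 genes carried the difference was not tested.

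**Figure D4:**
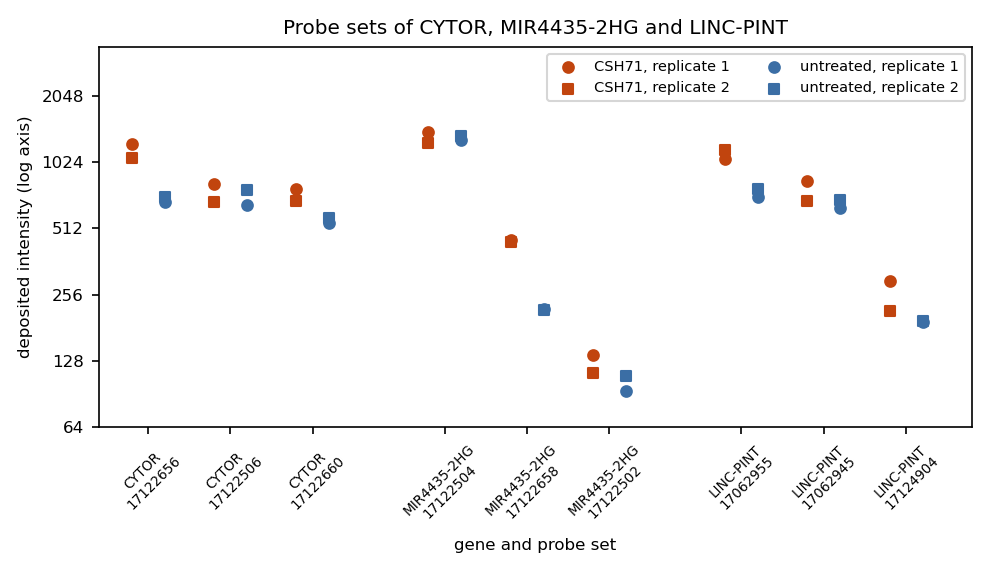
Deposited intensity (log axis) of each probe set of CYTOR, MIR4435-2HG and LINC-PINT, with 1 point per array. Within each gene some probe sets separate the groups, as 17122658 does at 451 and 444 with CSH71 against 219.6 and 217 without it, and others overlap, as 17122504 and 17122506 do.

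LINC-PINT had 3 probe sets, with log2 fold changes of 0.57, 0.36 and 0.19. The groups were apart on the first 2, and the last overlapped, at 836 and 683 with CSH71 against 635 and 688 without it. LINC00891 had 2 probe sets that both lay lower with CSH71 without overlap, at -0.64 and -0.55. LINC00641 had 2 that both lay higher without overlap, at 0.45 and 0.46, and its brighter one had 607 and 563 with CSH71, against 378 and 475 without it. LINC01000 had 3, all higher without overlap, at 0.12, 0.11 and 0.23. Over the 27 members with several probe sets, the signs of all of them were the same in 12 and differed in 15. Of the 7 probe sets of LINC01623, 6 hold identical values and were counted as 1.

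Neighbouring protein-coding genes were looked up by their order in the RefSeq table. Of the 107 members, 78 had at least 1 measured protein-coding gene next to them on either side, and the 109 such genes had a median log2 fold change of -0.01, with 0 called by limma. Across the 78 members, the member's log2 fold change and the mean of its neighbours correlated at r = 0.02 and rho = 0.12, as a description over genes that share the same 4 arrays. Protein-coding genes that overlap a member, 14 pairs in 10 members, were left out of these values. Those measured were ZFP62 at -0.18, with LINC00847 at -0.28, and POMZP3 at 0.15, with LINC03009 at 0.15. KLF14, the neighbour of LINC-PINT, was at 159 with CSH71 and 179 without it (log2 fold change -0.15). ZNF516 and ZNF236, beside LINC00908, were at -0.40 and -0.19, against 0.56 for LINC00908 itself. CD1D, which encodes a lipid antigen-presenting molecule and lies beside LINC01704, was at -0.08, against 0.68 for LINC01704. RGS18, beside LINC01720, was at -0.19, and SNX7, beside LINC01776, was at -0.11. CD40LG was not analysed here. The neighbours with the highest values, named after these were seen, lay beside members with small differences. The kinase gene SGK1 had 1959 and 1908 on the CSH71 arrays, against 525 and 646 on the untreated arrays (log2 fold change 1.70, limma adjusted p = 0.0563). Its neighbour LINC01010 was at 0.07. RNF32 was at 0.72 beside LINC00244 at -0.03, and TMEM232 at 0.68 beside LINC01848 at 0.20.

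Other noncoding RNAs were also without calls, but in several sets the directions were less even. The 353 LINC genes under an intensity of 100 had a median log2 fold change of 0.05, positive in 212 and negative in 141, with groups apart in 60 upwards (17.0%) and 38 downwards (10.8%), and 0 were called (15 higher and 7 lower at an unadjusted limma p under 0.05). Of 39 well-known noncoding RNAs listed for comparison, 20 were measured, with log2 fold changes from -0.22 to 0.22 and a median of 0.05. The value was positive in 17 and negative in 3. The groups were apart upwards in 5 of the 20 and downwards in 0, against 15.0% and 16.6% of all genes. Of the 20, 0 were called (0 at an unadjusted limma p under 0.05). MALAT1, a nuclear speckle RNA, had 3563 and 3816 with CSH71, against 3414 and 3712 without it (0.05). GAS5, a snoRNA host gene, had 2293 and 2508 with CSH71, against 2159 and 2279 without it (0.11). NORAD, which binds Pumilio proteins, was at 0.00, and TERC, the RNA template of telomerase, at 0.05. By symbol, the medians were -0.03 for 480 antisense genes, -0.04 for 26 microRNA host genes, -0.03 for 99 divergent transcripts, 0.06 for 9 SNHG genes and 0.10 for 29 intronic transcripts, and 0 genes of these 5 classes were called. Among the intronic transcripts the groups were apart upwards in 8 (27.6%) and downwards in 1 (3.45%), against 15.0% and 16.6% of all genes. The SNHG genes had 3 upwards (33.3%) and 0 downwards. The other classes had more downwards than upwards, as all genes did, with 55 upwards (11.5%) and 90 downwards (18.8%) among antisense genes. The microRNA host genes had 0 and 6 (23.1%), and the divergent transcripts 16 (16.2%) and 23 (23.2%). At an unadjusted limma p under 0.05, 5 of the 29 intronic transcripts were higher and 0 lower. Of the 99 divergent transcripts, 0 were higher and 4 lower. Over all genes 3.20% were higher and 1.90% lower at that limma p. The differences between these shares were not tested.

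The cell identity of the samples was checked with T-cell markers. Of 14 listed, 10 were measured, and their summed intensity was 9031 and 8595 on the CSH71 arrays, against 8942 and 9179 on the untreated arrays. ZAP70 and CD5 were bright on all arrays, while CD2 was at 60.9 to 91.6. The 8 monocyte markers summed to 614 and 791 with CSH71, against 819 and 599 without it, the 4 of 8 B-cell markers measured to 647 and 752 with CSH71, against 854 and 734 without it, and the 4 of 8 fibroblast and epithelial markers measured to 2546 and 2869 with CSH71, against 2777 and 2652 without it. In the last list EPCAM, an epithelial adhesion molecule, was bright on every array, at 1943 to 2169. None of these markers was at 0 on any array and 0 were called by limma. Their part in the members' differences was not tested.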

How the data were processed

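RNA of 2 CSH71-treated and 2 untreated HUT78 samples was measured on single-colour arrays, and groups and replicate numbers were read from the sample titles. The authors deposited 1 linear intensity for each probe set and array, made with Affymetrix Expression Console, per the submitters' processing notes. How probes were summarised, background-corrected and normalized is not stated there. There is no detection call, and having only 4 arrays limits the precision.

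Of 53617 probe sets, 16098 had 1 symbol in the platform annotation, 0 had several and 37519 had none. The brightest probe set per gene left 14884 genes. Intensities were transformed to log2(intensity + 16) without further normalization and fitted with limma (version 3.58.1, R 4.3.3), with 2 group means per gene, moderated variances and 2-sided p-values adjusted by Benjamini-Hochberg over all genes. Calls were made where the adjusted p was under 0.05. The fit was tested on simulated data. The members, lists and motifs were chosen with earlier results of these data known.

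The text names the 3 singly listed genes, the 6 brightest members, up to 8 members per direction with the largest fold change among those whose groups do not overlap, overlapping members among the 4 largest differences (there were 0), the 3 LINC genes on each side of the intensity limit, members with several probe sets, genes of a fixed list of noncoding RNAs, and nearest protein-coding genes. Alternatives were other added constants, quantile normalization, median centring, removal of the dimmest 40% of genes, trended and robust priors, averaging over the probe sets of each gene, fitting every probe set, a replicate block, each array left out, an intensity limit of 200, and the members without the 3 singly named. A crossed block was added after seeing the data. Figures were drawn with matplotlib 3.10.9.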

Additional observations from a re-analysis of the deposited data

How the results depend on the processing

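Limma called 0 of the 104 tested members as reported (8 at an unadjusted p under 0.05) and under every alternative run except the prior that follows intensity, which called 1, LINC-PINT (adjusted p = 0.00341, from 0.00341 to 1 over its alternatives). Under that prior the degrees of freedom were infinite, so the gene's own spread did not enter the p-value. The median log2 fold change of the members was 0.01 as reported and ran from -0.10 without untreated replicate 2 to 0.09 without untreated replicate 1. Members with groups apart, 18 in each direction, numbered 25 to 52 upwards and 28 to 47 downwards when 1 array was left out, because a lone array overlaps less often. With an intensity of 200 or more required, 46 members remained, of which 12 lay higher and 10 lower without overlap. The 22 genes whose log2 fold change was followed kept their direction under all alternatives run, except LINC00999, which was at -0.0015 with the mean of its probe sets. Much of this was fixed in advance. The other priors, the block, the fit of every probe set and removal of the dimmest genes leave the fold change itself unchanged. Where members were named because their groups do not overlap, leaving out 1 array cannot reverse the sign. LINC01720 ran from 0.15 without CSH71 replicate 2 to 3.09 without CSH71 replicate 1, LINC01776 from 0.43 to 1.70 and CYTOR from 0.41 with the mean of its probe sets to 0.82.

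Same-numbered arrays deviated in opposite directions over all genes (r = -0.29 between the replicate differences), so the numbers are not treated as pairs. With the replicate block, 0 tested members were called and the median of the members was 0.01. With the crossed pairing, chosen after seeing the data, 0 were called. Over all genes, limma called 7 as reported, 27 with the block and 0 with the crossed pairing. It called 0 with a constant of 1, 33 with a constant of 64, 0 after quantile normalization, 27 after median centring, 12 without the dimmest genes, 143 with the prior that follows intensity, 0 over all probe sets, and 0 to 29 with 1 array left out. Without a background level, the low signal of the dimmer members limits what a small difference can show.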
